A study of Mus musculus with 12 samples.

Results

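The hypothalamus of male B6.CAST-17 homozygous congenic mice was compared with that of male wild type B6 mice. A congenic strain matches its inbred background strain except for a chromosome segment bred in from another strain. Here that is a part of chromosome 17 that came from CAST, a strain derived from wild Mus musculus castaneus. The comparison used 6 of the 12 arrays of the series, chosen by their titles: 3 hypothalamus arrays of the "short congenics" and 3 hypothalamus arrays of wild type mice. The other 6 arrays hold skeletal muscle of mice titled congenics and wild type. Biological replication is described as 3 mice of each strain, and neither a treatment nor an age is named. The labels use the word short for the hypothalamus congenics only, they do not give the limits of the segment, and they do not say whether the mice of both tissues were the same animals or line. Of 33012 probes, 14411 carried exactly 1 gene symbol and stood for 13840 genes, with the brightest probe taken for a gene that had several. All values below are log2 signals, and a difference is congenic minus wild type.

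The hypothalamus is the ventral part of the forebrain that controls feeding, drinking, body temperature, daily rhythm and the pituitary gland. Its neurons release peptides such as oxytocin, vasopressin, orexin and the products of Pomc and Cartpt, which act within the brain, are released into blood in the posterior pituitary, or drive the hormone cells of the anterior pituitary. In a congenic strain, genes within the segment carry alleles of the donor, while genes elsewhere carry those of the background strain.

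Oxt, Avp, Hcrt, Cartpt and Pomc, defining peptide genes of this tissue, lay between 11.97 and 19.22 on the 3 congenic arrays and on wild type arrays 2 and 3. Wild type array 1 stood apart. Its rank correlation with the other 5 arrays over all probes was 0.420 to 0.461, where those 5 gave 0.775 to 0.853 among themselves. On that array Hcrt was 9.06, Pomc 8.68, Cartpt 11.26 and Aldoc, a glycolytic enzyme of astrocytes, 9.16, but Oxt was 18.69, Avp 16.87 and Sst 19.00, within or near the range of the others. Each result is therefore given with it (6 arrays) and without it (5 arrays, 3 congenic against 2 wild type). Congenic array 1 held the anterior pituitary hormones Gh at 17.46 and Prl at 14.94, where the other 5 arrays had 7.57 to 8.86 and 8.08 to 9.27. The median of the 9 measured anterior pituitary markers was 12.35 on that array and 8.33 to 9.39 on the others. Congenic array 3 lay nearer to wild type arrays 2 and 3 than to congenic arrays 1 and 2 in many probes, as the fit without it shows further on.

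With all 6 arrays no probe passed limma's test at an adjusted p of 0.05 (0 of 33012, percent called 0), and the smallest adjusted p was 0.936. An unadjusted p under 0.05 was found for 658 probes, or 1.99%. The 3 congenic arrays lay wholly above the 3 wild type arrays in 417 genes (3.01%) and wholly below them in 786 (5.68%). The genes named next are those with the smallest p, given as values that did not pass.

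Taf11 encodes a subunit of TFIID, the complex that places RNA polymerase II at promoters. It measured 10.71, 11.23 and 11.49 on congenic arrays 1 to 3 and 15.12, 14.10 and 13.97 on wild type arrays 1 to 3. The groups did not overlap, and wild type array 1 lay on the side of its group. The difference was -3.26 (SE 0.63) over 6 arrays and -2.90 (SE 0.32), or 7.44-fold lower, over 5 arrays, with limma adjusted p-values of 0.936 and 0.310. Cyp4f14, a cytochrome P450 of the family that hydroxylates fatty acids and leukotrienes at their tail end, measured 8.98, 8.02 and 9.24 on the congenic arrays and 13.93, 11.89 and 11.88 on the wild type arrays. Here too all 3 wild type arrays were above all 3 congenic arrays, by -3.82 (SE 0.78) over 6 arrays and -3.14 (SE 0.48) over 5.

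Both genes lie on chromosome 17, in the order of genes on either side of Rsph1. The 250 bases before their annotated starts are shown because, of the 655 chromosome 17 genes placed in order, this pair had the lowest strain differences in both fits. Sequences are those of the RefSeq table for GRCm38.p6, the B6 reference, on the minus strand and 5′ to 3′. Taf11 has 2 annotated starts, with windows at chr17:27907745-27907994 and chr17:27909243-27909492, and the first of 4 windows of Cyp4f14 is chr17:32917357-32917606. Capitals mark matches, on either strand, to 4 motifs: the TATA box (TATAAA), the CCAAT box (CCAAT), the GC box (GGGCGG) and the full cyclic AMP response element (TGACGTCA). No match overlapped another in these windows.
Taf11 first start: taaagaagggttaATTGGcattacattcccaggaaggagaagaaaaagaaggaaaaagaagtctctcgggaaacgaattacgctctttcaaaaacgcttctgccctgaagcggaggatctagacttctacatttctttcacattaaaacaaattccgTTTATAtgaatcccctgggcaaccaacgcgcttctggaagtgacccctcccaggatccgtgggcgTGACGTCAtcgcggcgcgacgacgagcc
Taf11 second start: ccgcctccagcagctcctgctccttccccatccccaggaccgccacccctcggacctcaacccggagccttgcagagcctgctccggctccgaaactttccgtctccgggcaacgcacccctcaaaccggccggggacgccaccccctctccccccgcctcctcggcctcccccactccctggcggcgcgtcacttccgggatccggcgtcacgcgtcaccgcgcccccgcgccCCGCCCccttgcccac
Cyp4f14 first start: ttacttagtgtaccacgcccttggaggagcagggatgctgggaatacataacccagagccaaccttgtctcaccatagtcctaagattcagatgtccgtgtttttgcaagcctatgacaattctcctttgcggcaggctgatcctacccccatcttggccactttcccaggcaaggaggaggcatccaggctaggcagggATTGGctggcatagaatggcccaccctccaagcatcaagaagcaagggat
The first Taf11 window held TGACGTCA at bases 223 to 230, a CCAAT match on the other strand at bases 14 to 18 and a TATAAA match on the other strand at bases 158 to 163. The second held GGGCGG on the other strand, and the Cyp4f14 window held CCAAT on the other strand. Of 32851 promoter windows of the same length, 1.55% held TGACGTCA, 12.4% TATAAA, 33.8% CCAAT and 32.7% GGGCGG. A match describes the letters only. The set of promoter windows used here held none for Rsph1 and Enpp5.

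Rsph1, a radial spoke protein of motile cilia, measured 14.48, 14.23 and 14.27 on the congenic arrays and 9.06, 12.11 and 11.85 on the wild type arrays. It was higher on every congenic array than on any wild type array, with a difference of 3.32 (SE 0.88) over 6 arrays and 2.35 (SE 0.27) over 5, where the limma adjusted p was 0.310. Taf11, Cyp4f14 and Rsph1 were the only chromosome 17 genes with an unadjusted p under 0.01 in both fits. Among genes of other chromosomes, the smallest p in the 6-array fit belonged to Cenpi, a centromere protein (1.70, SE 0.40), and Trim30d (1.46, SE 0.38) on the higher side. On the lower side they belonged to Sh3bp2, an adaptor protein of immune signalling (-2.69, SE 0.58), Pcdha4, a clustered protocadherin of neuronal contacts (-2.37, SE 0.58), and Sgca, a sarcoglycan (-1.38, SE 0.34). These 5 genes were dim, at 6.27 to 8.90 on the side where they were low, and whether those values stand above background is unknown, since no detection calls were available. Also in the list were Gzf1, Clcc1, Adgrl1 (latrophilin), Ttyh2, Olfr298, Rbbp5 and St3gal2 with differences of 1.41 to 2.26, and Thbs4, Ttc36, 2410137M14Rik, 2310057J18Rik and Stxbp6 with -2.54 to -0.88. Of these, 2410137M14Rik lies on chromosome 17.

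**Figure D1:**
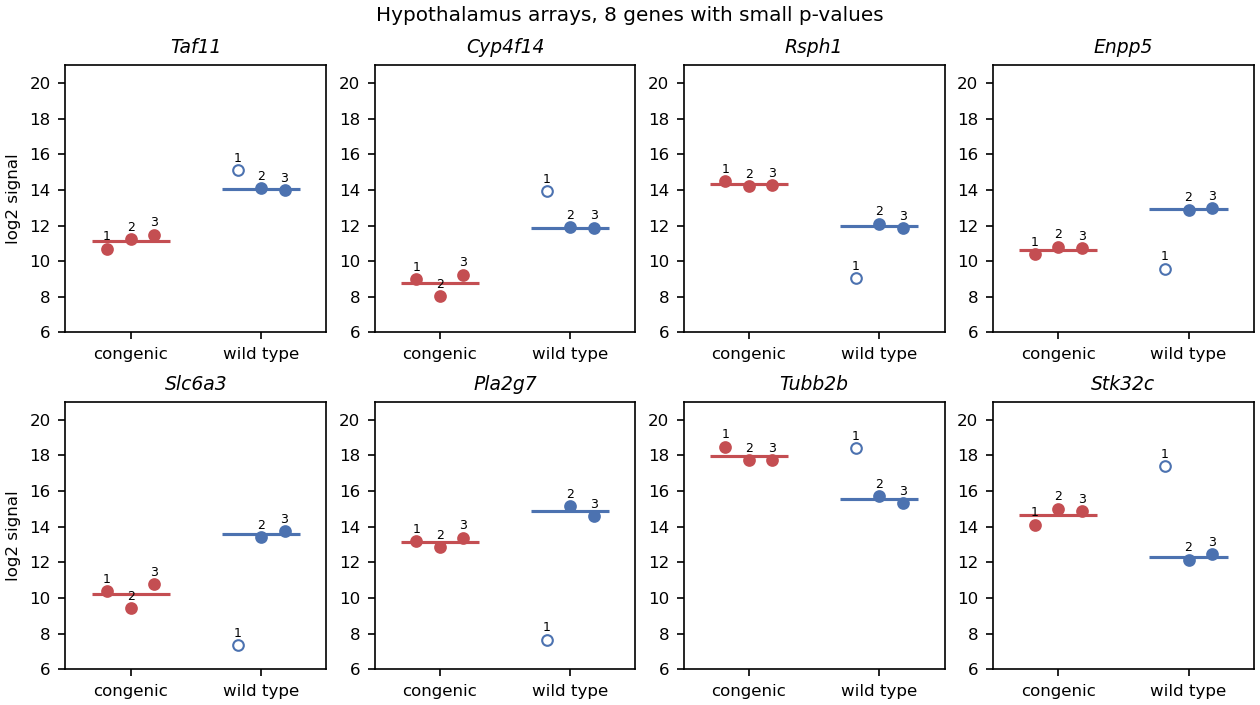
Log2 signal of 8 genes on each hypothalamus array. Points are arrays numbered 1 to 3 within congenic (red) and wild type (blue), the open point is wild type array 1, and lines are the mean of the 3 congenic arrays and of wild type arrays 2 and 3. Taf11, Cyp4f14 and Rsph1 keep the groups apart with all 6 arrays, while wild type array 1 lies among or beyond the congenic arrays for Enpp5 (9.59), Slc6a3 (7.33), Pla2g7 (7.66), Tubb2b (18.41) and Stk32c (17.39).

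Without wild type array 1 there was again no probe past the test (0 of 33012, percent called 0, limma), but 1761 probes, or 5.33%, had an unadjusted p under 0.05. By gene, 162 of 13840 (1.17%) had a p under 0.01, 50 of them higher in the congenic mice (0.361%) and 112 lower (0.809%). The 3 congenic arrays did not overlap wild type arrays 2 and 3 in 3383 genes (24.4%), with 1103 higher (7.97%) and 2280 lower (16.5%). The genes below lead that fit.

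Slc6a3, the transporter that returns dopamine into nerve endings, measured 10.37, 9.44 and 10.78 on the congenic arrays and 7.33, 13.41 and 13.74 on the wild type arrays. The congenic arrays were low against wild type arrays 2 and 3, but wild type array 1 was lower than all of them. The difference was -3.37 (SE 0.43) over 5 arrays, with a limma adjusted p of 0.383, and -1.29 (SE 1.57) over 6. Enpp5, a membrane protein of the nucleotide pyrophosphatase family on chromosome 17, measured 10.39, 10.81 and 10.74 against 9.59, 12.88 and 12.98 and showed the same arrangement (-2.28, SE 0.30 over 5 arrays). Pla2g7, which encodes platelet-activating factor acetylhydrolase, was 13.20, 12.84 and 13.39 on the congenic arrays and 7.66, 15.16 and 14.58 on the wild type arrays. Its difference was -1.73 (SE 0.32) over 5 arrays and 0.68 (SE 1.76) over 6, so its direction turned with wild type array 1.

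Tubb2b, a beta-tubulin of neurons, was the brightest of the 10 named genes on the higher side, with 18.49, 17.72 and 17.73 on the congenic arrays and 18.41, 15.73 and 15.33 on the wild type arrays. Wild type array 1 was as high as the congenic arrays, and the difference was 2.45 (SE 0.45) over 5 arrays and 1.49 (SE 0.84) over 6. Stk32c, a protein kinase, was 14.11, 15.01 and 14.86 against 17.39, 12.15 and 12.47 (2.35, SE 0.34 over 5 arrays and 0.66, SE 1.31 over 6). Ddx1, an RNA helicase, was 11.25, 12.50 and 11.40 against 12.83, 7.36 and 9.31, and the 5-array difference was 3.38 (SE 0.64). In all 3 genes wild type array 1 lay with or above the congenic arrays, away from its own group.

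The remaining genes of the naming rule on the higher side over 5 arrays were Olfr298 (2.62), Tmed9, which sorts cargo between endoplasmic reticulum and Golgi (1.84), Bcl7a, a subunit of chromatin remodelling complexes (1.85), the cytokine gene Il22 (2.73), Cyp4f15 (1.30) and Tbc1d24, a protein of vesicle traffic (1.62). On the lower side were Pllp, a protein of myelin (-1.50), Hsf4, a heat shock transcription factor (-1.67), Coro6, an actin-binding coronin (-2.36), Cnpy3, a chaperone of Toll-like receptors (-1.57), and Slc7a6os (-2.02). For none of these 11 did the limma adjusted p go below 0.764 over 5 arrays.

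The 5-array result turned on congenic array 3. When it was left out as well, leaving congenic arrays 1 and 2 against wild type arrays 2 and 3, limma called 606 probes (1.84%), 414 higher in the congenic mice (1.25%) and 192 lower (0.582%). The array left out as congenic then lay nearer to wild type arrays 2 and 3 in most of them: it was nearer to the congenic mean in 98 of the 606 (16.2%). Since none of these probes had passed with congenic array 3 in the fit, its place is partly set by how they were found. Wild type array 1, which was in neither fit, lay nearer to congenic arrays 1 and 2 in 459 (75.7%), and in 380 both left-out arrays were on the side opposite to their label. By direction, wild type array 1 was nearer to them in 288 of the 414 higher probes (69.6%) and in 171 of the 192 lower ones (89.1%). Over the 4986 probes that differed by more than 1 between these 2 pairs of arrays, congenic array 3 was on the congenic side in 32.9% and wild type array 1 in 62.1%. Both were on the side opposite to their label in 2075 of those 4986. Whether congenic arrays 1 and 2 share anything with wild type array 1 beyond these positions was not tested.

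Among the 380 called probes with both arrays on the opposite side was Hes1, a transcriptional repressor of Notch signalling, at 13.79 and 14.12 on congenic arrays 1 and 2 and 14.10 on wild type array 1, and at 10.27, 10.38 and 10.31 on congenic array 3 and wild type arrays 2 and 3. Fos, the immediate early gene, was low in the former group (10.66, 10.27 and 8.47) and high in the latter (12.67, 12.65 and 12.50). Vamp2, a synaptic vesicle protein, followed Fos, with 12.98, 12.53 and 10.08 against 14.66, 14.72 and 14.59. A dimmer Vamp2 probe did not show it, with 12.05, 12.24 and 12.65 against 12.41, 11.59 and 11.99. These 3 genes were chosen after their values were seen. Of the 26 peptides on the feeding, stress, neurohypophysial and releasing hormone lists that were measured, the 4-array fit called 6, against 290 of all 13840 genes (2.1%). It called Gal, Kiss1, Avp, Cartpt and Ghrh as higher and Trh as lower on congenic arrays 1 and 2, with limma adjusted p-values of 0.0220 to 0.0468. In all 6 of them congenic array 3 lay nearer to wild type arrays 2 and 3, and wild type array 1 lay nearer to the congenic pair except for Cartpt and Ghrh. Cga, the alpha chain of pituitary glycoprotein hormones, was called too, at 15.56, 14.46 and 12.83 on the congenic arrays and 14.72, 12.86 and 12.96 on the wild type arrays. Its part in the peptide differences was not tested.

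**Figure D2:**
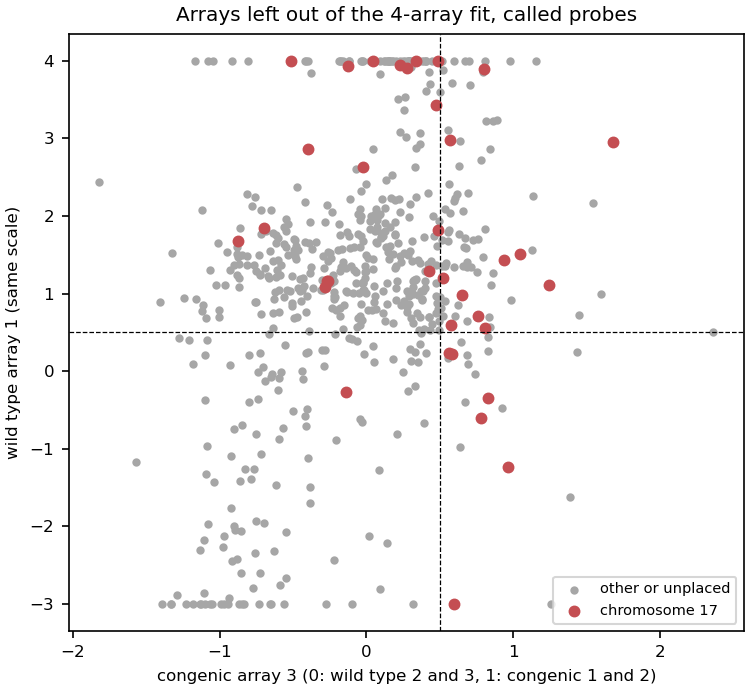
Position of congenic array 3 (horizontal) and wild type array 1 (vertical) for the 606 probes called between congenic arrays 1 and 2 and wild type arrays 2 and 3. On both axes 0 is the mean of wild type arrays 2 and 3 and 1 the mean of congenic arrays 1 and 2, dashed lines mark the midpoint, and vertical values past -3 or 4 are drawn at the edge. Points to the right of the vertical line number 98 of 606 and points above the horizontal line 459 of 606, and the chromosome 17 probes (red) are spread to both sides of the vertical line.

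The arrays left out were also placed by chromosome. Of the 35 chromosome 17 probes called in the 4-array fit, congenic array 3 was on the congenic side in 17 (48.6%), against 39 of 263 (14.8%) for genes of other chromosomes and 42 of 308 (13.6%) for probes without a gene name. Wild type array 1 was on the congenic side in 28 of the 35 (80.0%), against 80.6% on other chromosomes, and only 6 of the 35 had both arrays on their labelled side. Taf11, Rsph1, Cyp4f14, Enpp5, Srrm2 and Dynlt1b were among the probes where congenic array 3 kept its label. These shares are descriptions and their difference was not tested.

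The segment from CAST lies on chromosome 17, so the 656 measured genes of that chromosome were described in gene order. An unadjusted p under 0.01 was found for 4 of them over 6 arrays, where 0.123% of all genes had such a p (0.0506% higher and 0.0723% lower): Taf11, Cyp4f14, Rsph1 and 2410137M14Rik. Over 5 arrays it was found for 28, or 4.27%, against 134 of 13177 (1.02%) on the other chromosomes and 1.17% of all genes. Of the 28, 11 were higher and 17 lower in the congenic mice. With 6 arrays, of which 5 are the same, 24 of the 28 had the same sign (85.7%) and 10 had the groups apart (35.7%), against 106 (79.1%) and 33 (24.6%) of the 134 on other chromosomes. Of all genes, 8.69% had the groups apart over 6 arrays. The sign was the same in 63.7% of all chromosome 17 genes and in 63.2% of all genes on other chromosomes. The 28 and the 134 were picked by their p on 5 of these 6 arrays, which favours both counts. Leaving out congenic array 3 along with wild type array 1 gave 92 chromosome 17 genes with a p under 0.01 (14%). The share on other chromosomes also went up, to 8.51%. Leaving out wild type array 2 gave 6 (0.915%, against 0.304% elsewhere) and leaving out wild type array 3 gave 8 (1.22%, against 0.357%). The following genes of this set were named after their values were seen, beyond the naming rule.

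At the start of the chromosome's gene order stood Dynlt1b, a dynein light chain, Rnaset2b, a lysosomal ribonuclease, and Rsph3a, another radial spoke protein. Dynlt1b measured 15.67, 16.01 and 15.16 on the congenic arrays and 7.78, 14.29 and 14.02 on the wild type arrays, so that the groups did not overlap (1.46, SE 0.35 over 5 arrays). Rnaset2b (-1.35, SE 0.33) and Rsph3a (-1.61, SE 0.44) were lower over 5 arrays. Dynlt1b and Rnaset2b have close copies in the mouse genome, and a probe may measure a copy along with the gene named. Next in order came Paqr4, Srrm2, Tbc1d24, Caskin1, Lmf1 and Decr2. Srrm2, a scaffold of the splicing machinery, was 16.95, 17.01 and 16.08 against 15.38, 15.17 and 14.64, higher on every congenic array (1.78, SE 0.42). Caskin1, a synaptic scaffold, Lmf1, which matures lipases, and Decr2, an enzyme of peroxisomal fatty acid oxidation, differed by -1.71, -1.10 and -2.22 over 5 arrays.

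Taf11, Mtch1, Rsph1, Cyp4f15, Cyp4f14 and Zfp955a followed. Cyp4f15 and Cyp4f14, 2 close relatives that stand near each other in the gene order, differed in opposite directions. Cyp4f15 was 12.96, 12.95 and 13.02 on the congenic arrays and 13.61, 11.49 and 11.86 on the wild type arrays, which gave 1.30 (SE 0.27) over 5 arrays, while Cyp4f14 gave -3.14. In Cyp4f15 wild type array 1 was above the congenic arrays, and in Cyp4f14 it was above its own group. Mtch1, a mitochondrial outer membrane protein, was 15.41, 14.84 and 16.58 against 8.36, 18.20 and 17.63, so its 5-array difference of -2.30 (SE 0.55) became 0.88 over 6 arrays.

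The stretch that holds the major histocompatibility complex contributed Agpat1, an acyltransferase of phospholipid synthesis (-1.50), Prrt1, a partner of AMPA receptors (-1.30), Ly6g6d (1.79), Cchcr1 (1.36) and Abcf1 (-1.03) over 5 arrays. Prrt1 measured 11.31, 11.17 and 11.58 on the congenic arrays and 11.65, 12.65 and 12.66 on the wild type arrays, with the groups apart by a small step at wild type array 1. Further along came Olfr103, Mmut, Pla2g7, Enpp5, Cnpy3 and Slc25a23. Olfr103 was among the dimmest probes, at 6.50 to 7.66 on the hypothalamus arrays, and only 0.0182% of probes had a lower mean. Mmut, the mitochondrial methylmalonyl-CoA mutase, was 14.17, 14.20 and 14.24 against 14.78, 13.33 and 13.08 (1.00, SE 0.26), and Slc25a23, a mitochondrial carrier of ATP-magnesium and phosphate, differed by -1.87 (SE 0.47). The last in order were Alk, a receptor tyrosine kinase of neurons, at 13.13, 12.70 and 12.14 against 11.48, 11.28 and 10.85 (1.59, SE 0.36), and Foxn2, a forkhead transcription factor (1.66, SE 0.47). Both were higher on every congenic array than on any wild type array.

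Along 10 blocks of 65 or 66 genes in chromosome order, the number with a p under 0.01 over 5 arrays was 3, 4, 3, 5, 3, 3, 3, 1, 1 and 2. Over all genes 1.17% had such a p, and a count of 1 in a block of this size is near that share. It does not set a block apart. The share of genes with groups apart ran from 18.2% to 37.9%, against 24.4% of all genes. The labels do not say which blocks the segment covers.

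**Figure D3:**
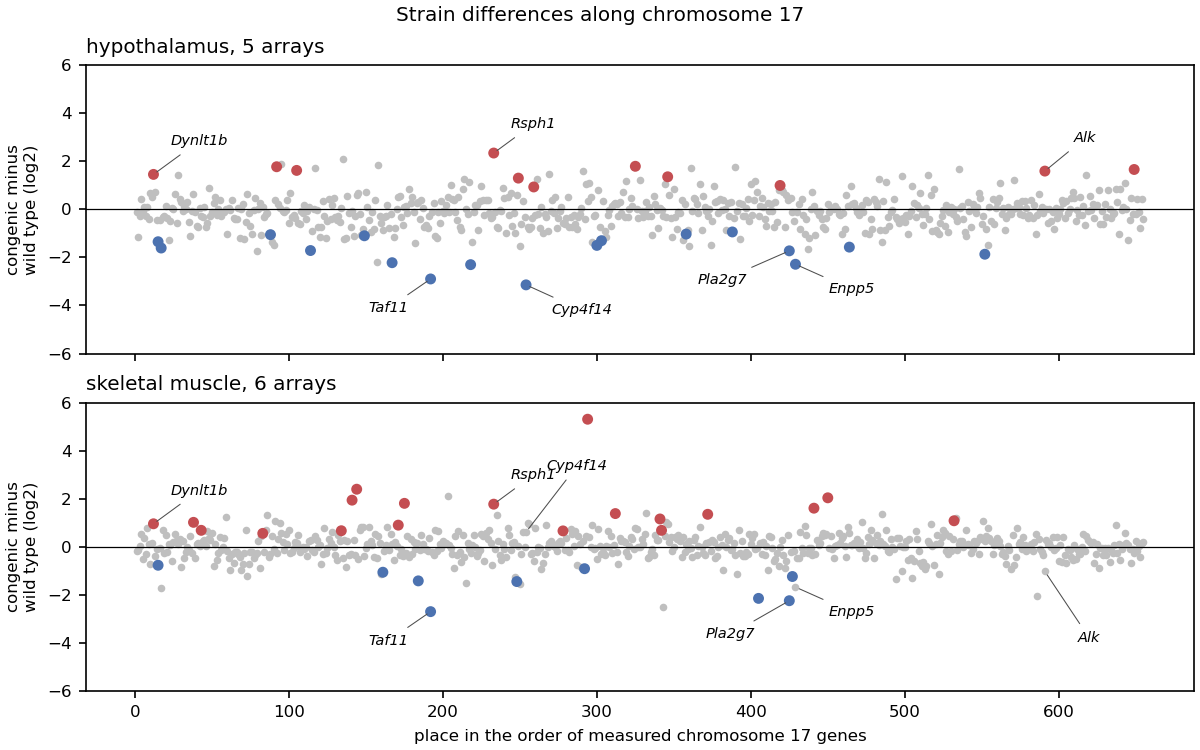
Strain difference of each chromosome 17 gene with a place in the gene order, congenic minus wild type in log2 units, in hypothalamus without wild type array 1 (top) and in skeletal muscle (bottom). Coloured points have an unadjusted p under 0.01 in that tissue, red higher and blue lower in the congenic mice. Taf11 is low in both tissues (-2.90 and -2.70) and Rsph1 high in both (2.35 and 1.77), while Cyp4f14 differs by -3.14 in hypothalamus and by 0.61 in muscle, where both strains were dim (means 9.05 and 8.44).

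The muscle arrays, which share no array with the hypothalamus fit, gave a second measure of the 28 genes with the same probes. Whether CAST alleles differ from those of B6 under a probe, which would enter both tissues, was not tested. In muscle 11 of the 28 (39.3%) had an unadjusted p under 0.05, 10 of these with the sign seen in hypothalamus, where 9.60% of all chromosome 17 genes and 5.01% of all genes had such a p. Of the 134 genes chosen the same way on other chromosomes, 8 (5.97%) had such a p in muscle and 2 of these kept their sign. A p under 0.01 in muscle was found for 5 of the 28 (17.9%) and for none of the 134, and it was found for 0.795% of all genes. The 5 genes were Taf11, Pla2g7, Rsph1, Dynlt1b and Rnaset2b, and Taf11 and Pla2g7 passed limma's test in muscle (6 of 33012 probes, 0.0182%), both with an adjusted p of 0.0124. Their muscle differences were -2.70, -2.25, 1.77, 0.95 and -0.77, all in the direction of the 5-array hypothalamus values. Alk, at -1.03 in muscle and 1.59 in hypothalamus, was the 1 gene of the 11 with opposite signs. Over the whole set 17 of the 28 (60.7%) had the same sign in both tissues and 11 did not, where 52.1% of all chromosome 17 genes and 41.0% of the 134 had the same sign.

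Whether a strain difference was particular to the hypothalamus was tested by the contrast of the tissues' strain differences. The tissues were normalized apart, and what that adds to the contrast was not tested. No probe passed over 12 arrays (0 of 33012, percent called 0, smallest limma adjusted p 0.913) or over 11 arrays without wild type hypothalamus array 1 (0 of 33012, percent called 0), where 1198 probes (3.63%) and 2224 probes (6.74%) had an unadjusted p under 0.05. The smallest adjusted p over 11 arrays, 0.0528 in limma, belonged to H2-Ea, whose product is a chain of the class II antigen-presenting molecule I-E. H2-Ea measured 9.46, 8.83 and 8.85 in congenic hypothalamus and 7.34, 8.82 and 8.55 in wild type hypothalamus, and its strain difference there was 0.36 (SE 0.50) over 5 arrays. In muscle it was 5.31, which made the contrast -4.94 (SE 0.62). The gene was thus near the median of all hypothalamus values, 8.98, in both strains. Cyp4f14 had the most negative contrast of the other named chromosome 17 genes, -3.75 (SE 0.80) with a limma adjusted p of 0.468. Further genes of the naming rule, all at adjusted p-values of 0.468 to 0.640 over 11 arrays, were Olfr298 (3.94), Ddx1 (3.43), Psapl1 (3.02), Lmx1a (2.48), Atxn7 (2.61), Sec61a1 (2.07), Tubb2b (2.00) and Tmed9 (1.68) on the positive side. On the negative side were Slc6a3 (-3.41), Marcksl1 (-2.79), Efna2 (-2.54), Thbs4 (-2.32), Pllp (-2.23), Cnpy3 (-2.16) and Pcdha4 (-2.69). Cenpi had a contrast of 2.25 at an adjusted p of 0.640.

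Gene lists are described next by the sign of their members' differences, beside all 13840 genes, of which 48.8% were higher over 6 arrays (median -0.03) and 44.5% over 5 arrays (median -0.07). No member of any list passed limma's test in either fit. Over 5 arrays 6.58% of all genes had an unadjusted p under 0.05, 1.86% being higher and 4.72% lower, and over 6 arrays 0.672% were higher and 1.01% lower. Some list members below were named after their values were seen, beyond the naming rule: Npy, Galr2, Ddc, Hrh3, Htr3a, Pitx3, En1, Slc18a2, Grik5, Rps29, Tuba8, Tbp, Rsph9, Cdh5, Kdr and Pde10a.

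Of the neurohypophysial and releasing hormones, 6 of 9 were higher over 5 arrays, with a median of 0.51, and 7 of 9 over 6 arrays, with a median of 0.60. None had a p under 0.05 in either fit. Oxt measured 18.76, 19.22 and 17.96 on the congenic arrays and 18.69, 17.43 and 17.48 on the wild type arrays (1.19, SE 0.59 over 5 arrays). Avp measured 17.22, 17.95 and 15.72 against 16.87, 15.75 and 15.84 (1.17, SE 0.63). In both, congenic arrays 1 and 2 and wild type array 1 were above wild type arrays 2 and 3, and congenic array 3 was above them for Oxt and beside them for Avp. Kiss1, which drives gonadotropin release, was 10.84, 11.41 and 8.97 against 12.65, 9.05 and 9.05, and Sst, somatostatin, was 17.87, 18.28 and 17.15 against 19.00, 19.16 and 17.63 (-0.63, SE 0.66). Kiss1 split like Avp, and in Sst the groups overlapped.

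Hcrt, the precursor of the wake- and feeding-promoting orexins, was 16.84, 17.55 and 16.30 on the congenic arrays and 9.06, 17.58 and 19.10 on the wild type arrays. The difference was -1.45 (SE 0.62) over 5 arrays and 1.65 over 6 arrays, with wild type array 1 far below the rest. Npy, which stimulates feeding, differed by 0.25 (SE 0.48) and Gal, galanin, by 0.85 (SE 0.57) over 5 arrays. Of 14 measured anorexigenic and stress peptides, 9 were higher over 5 arrays (median 0.25) and 7 over 6 arrays (median -0.13). Cartpt, which restrains feeding, was 18.20, 17.88 and 15.49 against 11.26, 16.43 and 16.56, with overlapping groups. Bdnf, a growth factor, was 10.64, 11.03 and 10.29 against 13.18, 8.53 and 10.04 (1.37, SE 0.53 over 5 arrays), and Pomc was 18.18 on congenic array 1 and 11.97 to 12.97 on the other 4 arrays of that fit.

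**Figure D4:**
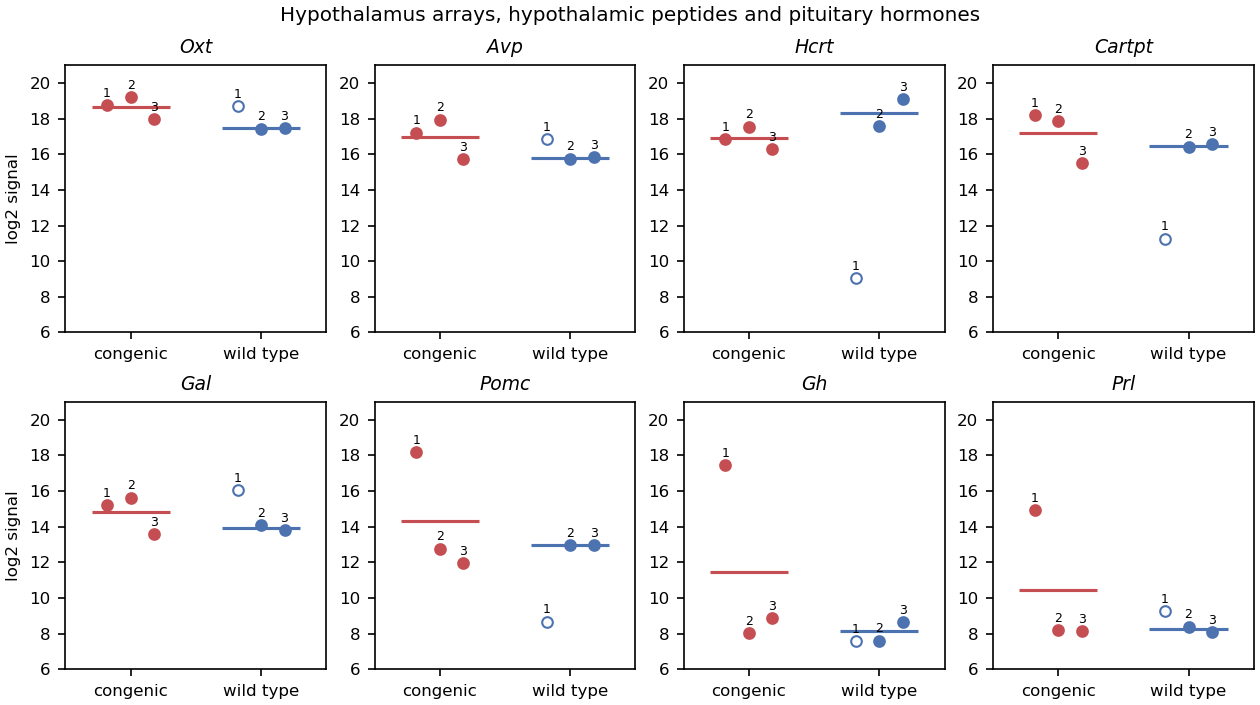
Log2 signal of 6 hypothalamic peptide genes and of the pituitary hormones Gh and Prl on each hypothalamus array, drawn as in the plot of the 8 leading genes. Wild type array 1 (open) is far below the others for Hcrt (9.06), Cartpt (11.26) and Pomc (8.68) but not for Oxt, Avp and Gal, and congenic array 1 is far above the others for Gh (17.46), Prl (14.94) and Pomc (18.18).

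Among 27 receptors of energy balance and peptides, 11 were higher and 16 lower in both fits, with medians of -0.15 over 5 arrays and -0.20 over 6. Lepr, the leptin receptor, was 7.58, 7.33 and 8.31 on the congenic arrays and 8.42, 8.91 and 9.0 on the wild type arrays. All congenic arrays were below all wild type arrays, by -1.22 (SE 0.49) over 5 arrays and -1.04 over 6, at values near or under 8.98, the median of all hypothalamus values. Ntsr2, a neurotensin receptor of astrocytes, was 16.23, 16.67 and 17.47 against 7.19, 18.46 and 18.63 (-1.75, SE 0.52 over 5 arrays), with wild type array 1 at the opposite end. Galr2, a galanin receptor, was 9.77, 9.03 and 10.27 against 8.17, 7.99 and 8.69, higher on every congenic array (1.35, SE 0.56 over 5 arrays).

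Of 28 genes of monoamine synthesis, transport and reception, 18 were lower in both fits, 6 of them at a p under 0.05 over 5 arrays and none over 6. Th, the rate-limiting enzyme of dopamine synthesis, was 14.72, 14.31 and 14.99 on the congenic arrays and 15.13, 15.81 and 15.38 on the wild type arrays (-0.92, SE 0.34 over 5 arrays). Drd2, a dopamine receptor, was 11.79, 10.67 and 10.92 against 11.23, 12.41 and 12.41 (-1.29, SE 0.38). The groups were apart for Th with all 6 arrays and for Drd2 without wild type array 1 only. Ddc (-0.68), Hrh3, a histamine receptor (-0.70), and Htr3a, a serotonin-gated channel (-1.62), were the other members with Slc6a3 at that threshold.
Slc6a3, Th and Ddc are also on the list of midbrain dopamine neurons, of whose 11 markers 8 were lower over 5 arrays (median -0.31). On that list Aldh1a1, an aldehyde dehydrogenase of these neurons, was 14.38, 14.44 and 14.31 against 14.95, 15.40 and 15.06, apart with all 6 arrays. Pitx3 and En1, transcription factors that define midbrain dopamine neurons, differed by 0.34 (SE 0.33) and -0.19 (SE 0.48). Slc18a2, the vesicular monoamine transporter, differed by -0.40 (SE 0.38). In these bulk samples fewer cells of a type and less RNA per cell cannot be told apart.

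Of 6 opioid genes 4 were higher over 5 arrays, and Oprd1, the delta receptor, was 11.61, 11.64 and 10.70 against 12.25, 10.27 and 10.13 (1.12, SE 0.40). Penk and Pdyn, the enkephalin and dynorphin precursors, differed by 0.03 (SE 0.36) and 0.29 (SE 0.34). Of 16 GABA genes 9 were higher over 5 arrays and of 19 glutamate genes 12, with medians of 0.06 and 0.21. Abat, which breaks down GABA, was 17.96, 17.72 and 18.73 on the congenic arrays and 19.85, 19.28 and 19.37 on the wild type arrays, below in every congenic array (-1.36 over 6 arrays, -1.19 over 5). A dimmer Abat probe gave -0.83 and -0.24. Grik5, a kainate receptor subunit, was 9.76, 12.90 and 13.45 against 8.77, 9.61 and 9.51, with congenic arrays 2 and 3 high and congenic array 1 just above the wild type range (2.74 over 6 arrays, 2.48 over 5). Gria3, an AMPA receptor subunit, differed by 0.95 (SE 0.32) and Grid1, a delta receptor subunit, by -1.38 (SE 0.43) over 5 arrays.

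Of 18 genes of synaptic vesicles and presynaptic terminals, 15 were higher over 6 arrays (median 0.39) and 8 over 5 arrays (median -0.17). Syn1, which tethers vesicles, was 14.46, 13.70 and 15.05 against 12.28, 15.73 and 16.30 (-1.61, SE 0.44 over 5 arrays). Cplx1, a regulator of vesicle fusion, was 15.99, 15.38 and 17.82 against 8.66, 17.25 and 17.81, and Rab3a, a vesicle GTPase, was 15.76, 15.58 and 16.67 against 13.47, 16.58 and 16.71. In Cplx1 and Rab3a congenic array 3 measured as high as wild type arrays 2 and 3, and wild type array 1 was lowest. Of 16 voltage-gated channels 8 were higher over 5 arrays. Kcnj3, a potassium channel opened by G proteins, differed by -1.40 (SE 0.53) and Cacna1g, a T-type calcium channel, by 2.45 (SE 1.05), where congenic array 1 (7.26) lay with wild type arrays 2 and 3 (7.03 and 7.33).

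Of 18 immediate early genes, which neurons switch on within minutes of activity, 8 were higher over 5 arrays. Jund was 9.51, 10.04 and 11.49 on the congenic arrays and 8.31, 8.43 and 8.22 on the wild type arrays, higher in every congenic array (2.03 over 6 arrays, 2.02 over 5). Jun was 13.34, 13.63 and 12.30 against 14.23, 12.15 and 12.05 (0.99, SE 0.41 over 5 arrays) and Egr1 was 11.99, 11.92 and 12.75 against 8.22, 12.98 and 13.09 (-0.81, SE 0.33). Of these 3 genes only Jund kept the groups apart with all 6 arrays. Of 18 clock genes 10 were higher over 5 arrays, where none had a p under 0.05, and 12 over 6 arrays. Nr1d1, a clock repressor, was 8.07, 10.17 and 10.42 against 7.19, 8.13 and 8.05 (1.47, SE 0.75), and Dbp, a clock output gene, differed by 0.14 (SE 0.32).

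The list medians that moved most between the fits were those of oxidative phosphorylation, heat shock proteins and glycolysis. Of 34 genes of oxidative phosphorylation, 22 were higher over 6 arrays, with a median of 1.40, and 14 over 5 arrays, with a median of -0.09. Their median level was 11.10 on wild type array 1 and 15.70 to 16.79 on the other 5. Glycolysis went from 12 of 15 higher (median 1.10) to 5 of 15 (median -0.29), and heat shock proteins from 10 of 11 (median 1.26) to 4 of 11 (median -0.13). Ndufv1, which encodes a subunit of complex I, was 15.12, 15.21 and 16.19 on the congenic arrays and 7.85, 16.54 and 16.11 on the wild type arrays. Sdhb of complex II, at 17.40, 17.55 and 17.55 against 18.18, 17.76 and 17.53, was not low on wild type array 1. Hk1, the hexokinase of brain, was 13.81, 13.21 and 14.77 against 8.38, 15.29 and 15.01 (-1.22, SE 0.45 over 5 arrays), and Aldoa, an aldolase, was 14.79, 15.59 and 17.13 against 7.95, 14.47 and 14.55, with the groups apart in both fits. Of 30 ribosomal protein genes 17 were higher over 5 arrays (median 0.07) and 18 over 6 (median 0.43). Rps28 and Rps29 were about 3 units higher on congenic arrays 1 and 2 than on congenic array 3 (17.83 and 18.48 against 14.92, and 19.26 and 18.73 against 15.60).

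Of 11 tubulins 9 were lower over 5 arrays, with a median of -0.57, while Tubb2b was higher by 2.45. Tubb3, the tubulin of neurons, was 16.47, 16.04 and 17.43 against 10.36, 17.96 and 18.68 (-1.67, SE 0.56), and Tuba8 differed by -1.22 (SE 0.49). Of 8 measured TFIID subunits 7 were lower over 5 arrays and 5 over 6, but only Taf11 had a p under 0.05, and Tbp, the subunit that binds the TATA box, differed by -0.32 (SE 0.43). Of 17 genes of dynein light chains and cilia 8 were higher over 5 arrays. Those on chromosome 17 went both ways, with Rsph1 and Dynlt1b higher and Rsph3a lower, and Rsph9, the fourth, differed by 0.14 (SE 0.44). Foxj1, the transcription factor of motile cilia, differed by -0.42 (SE 0.27).

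Of 21 genes of the major histocompatibility complex and antigen presentation, 9 were higher over 5 arrays (median -0.06) and 15 over 6 (median 0.21). H2-Ab1, a class II beta chain, was 10.59, 11.20 and 9.88 on the congenic arrays and 7.29, 8.90 and 9.0 on the wild type arrays. All congenic arrays were above all wild type arrays, by 1.61 (SE 0.49) over 5 arrays and 2.16 over 6. H2-T23, a nonclassical class I gene, was 10.50, 8.57 and 9.95 against 8.60, 11.04 and 11.31 (-1.51, SE 0.58 over 5 arrays), and H2-K1 differed by -0.55 (SE 0.36). H2 genes are close copies of each other, and probes may measure more than the gene named. Of 7 complement genes 3 were higher in both fits, and C1qa, C1qb and C1qc of microglia differed by -0.10, -0.32 and -0.43 over 5 arrays. Of 24 genes of lipid metabolism 11 were higher over 5 arrays (median -0.06), with Fasn, the fatty acid synthase, at -0.66 (SE 0.40).

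**Figure D5:**
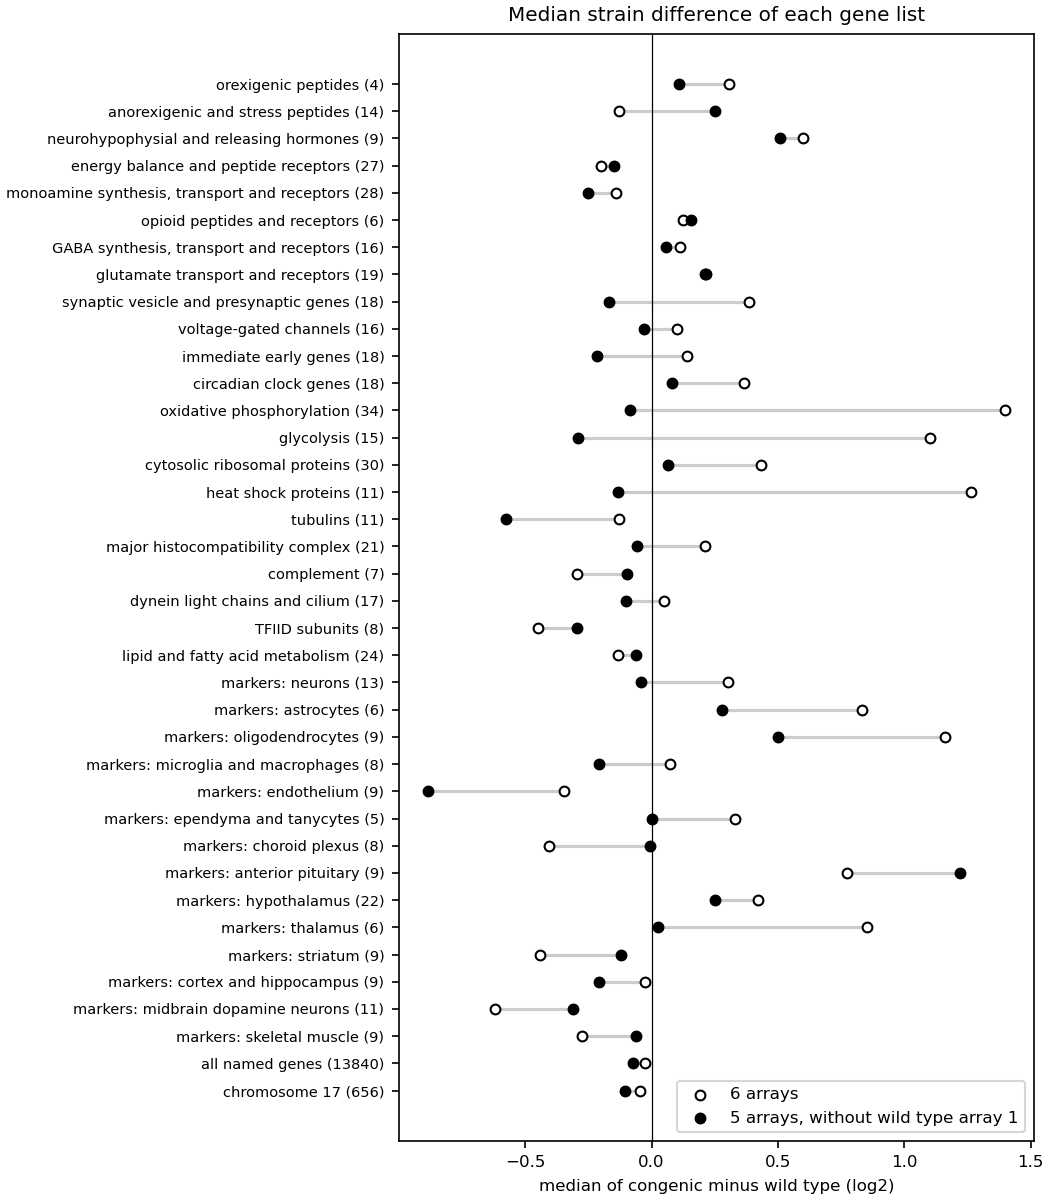
Median strain difference (congenic minus wild type, log2) of each gene list with at least 4 measured members, over 6 arrays (open points) and over 5 arrays without wild type array 1 (filled points). Numbers in brackets are measured genes. Oxidative phosphorylation, glycolysis and heat shock proteins move from above 1 to just below 0 when that array is left out, and endothelium (-0.89) and anterior pituitary (1.22) are the lists farthest from 0 over 5 arrays.

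Markers of cell types were read the same way. Of 9 endothelial markers 7 were lower over 5 arrays (median -0.89), 3 of them at a p under 0.05, and 6 over 6 arrays (median -0.34). Cldn5, a tight junction protein of brain vessels, was 13.23, 13.22 and 13.20 on the congenic arrays and 7.93, 13.72 and 14.48 on the wild type arrays (-0.89, SE 0.31). Cdh5 (-1.30, SE 0.48) and Esam (-1.15, SE 0.42), adhesion proteins of vessels, were the other 2, while Kdr, a receptor of vascular growth factor, differed by 0.09 (SE 0.41). Of 9 oligodendrocyte markers 9 were higher over 6 arrays and 6 over 5 arrays (median 0.50). Mbp, a myelin protein, was 9.78, 15.57 and 17.24 on the congenic arrays and 7.44, 10.46 and 11.17 on the wild type arrays. Congenic array 1 lay within the wild type range, and the difference over 5 arrays was 3.38 (SE 1.81). Olig1 showed the same order of congenic arrays, at 8.07, 10.44 and 12.40.

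Of 6 astrocyte markers 4 were higher over 5 arrays, with Gja1, a gap junction protein, at 8.64, 8.18 and 11.89 against 9.50, 7.22 and 7.67. Aldh1l1 differed by -0.50 and by 2.09 in its dimmer probe, so its direction rests on the probe. Of 8 markers of microglia and macrophages 3 were higher, of 5 of ependyma and tanycytes 3 (median 0.00), and of 8 of choroid plexus 4, each over 5 arrays and without a p under 0.05. Ttr, the most abundant choroid plexus transcript, was 12.23, 12.03 and 10.88 against 7.91, 12.18 and 12.16. Of 13 neuronal markers 6 were higher over 5 arrays, with Elavl4 at -1.29 (SE 0.49). Of the 3 blood genes measured 2 were higher, and Hba-a1, a haemoglobin chain, was 16.76, 17.73 and 13.58 against 10.52, 15.42 and 15.59.

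Markers of neighbouring regions bear on how the tissue was taken. Of 22 hypothalamus markers 13 were higher over 5 arrays (median 0.25), with Dlx1, a transcription factor of GABA neurons, at 13.60, 13.75 and 13.13 against 14.05, 12.81 and 12.46 (0.86, SE 0.30). Of 9 striatum markers 4 were higher and 5 lower over 5 arrays, the latter with Ppp1r1b (-0.81, SE 0.32), Pde10a (-1.28, SE 0.51) and Drd2 at a p under 0.05. Pde10a lies on chromosome 17, but the labels do not say whether the segment from CAST covers it. The part of segment and dissection in its difference was not tested. Of 6 thalamus markers 3 were higher, with Gbx2 at 1.40 (SE 0.51), and of 9 markers of cortex and hippocampus 2 were higher. Of 9 skeletal muscle markers 4 were higher and Mylpf, a myosin light chain, was at a difference of -1.51 (SE 0.49), at 7.25 to 9.52.
Of 9 anterior pituitary markers 8 were higher over 5 arrays (median 1.22) and 6 over 6 (median 0.77). Lhb, the beta chain of luteinizing hormone, was 11.49, 11.13 and 10.99 against 10.37, 10.60 and 10.15, higher on every congenic array (0.83, SE 0.35), and Ghrhr differed by 1.22 (SE 0.47). Gh, with a difference of 3.33 (SE 2.42), and Prl, with 2.20 (SE 1.83), were high on congenic array 1 only. The part of dissection, of pituitary tissue on that array and of the low signals on wild type array 1 in the strain differences was not tested.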

How the data were processed

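RNA from 6 hypothalamus and 6 skeletal muscle samples was turned into digoxigenin-labelled cRNA for one-colour chemiluminescent arrays, per the labels' protocols. The log2 values were used as deposited by the authors. The base was inferred from the range of 5.35 to 21.11 in hypothalamus, and the 6 hypothalamus columns share 1 distribution, as quantile normalization gives. For software, background correction and log base no source used here gives a name, and detection calls were not available. The number of arrays limits the precision.

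The platform annotation gave the gene names: 14411 probes had 1 symbol, 247 several and 18354 none. Of the first kind 14403 matched a RefSeq gene table (GRCm38.p6), used for names, chromosome membership and gene order only. Probe sequences were not used here. Groups came from the titles. Descriptions, which give wild type samples the congenic name too, were left aside. The members, lists and tests were chosen with earlier results of these data known.

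Strain differences were fitted over all probes in R 4.3.3 with the linear models of limma 3.58.1 (moderated by eBayes with a trend on mean level, Benjamini-Hochberg adjustment, threshold 0.05) on 6 and on 5 arrays, and the contrast of tissues on 12 and 11. P-values measure the spread between these samples. Same-numbered congenic and wild type arrays had deviation correlations of 0.03, -0.13 and 0.14. Congenic array 3 gave values of the same size with wild type arrays 1 and 2 (-0.16 and 0.14). With so few arrays these values cannot decide whether the numbers pair the samples, and the main fits used no pairing. Genes named are, for each fit, the 10 with the smallest p in each direction, chromosome 17 genes with a p under 0.01 in both fits, 5 in each direction per tissue contrast, 2 to 4 members of each list, and Gh and Prl. The strain fits were tested on simulated independent arrays with the group sizes used here. The simulation held no array as far off as wild type array 1 and did not cover the contrast of tissues. Alternatives were array weights, cyclic loess, a floor, a filter on dim probes, robust and untrended eBayes, a spread pooled over tissues, a block, the mean of a gene's probes, and leaving out arrays.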

Additional observations from a re-analysis of the deposited data

How the results depend on the processing

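Over 6 arrays limma called 0 probes under every alternative run, also with each array left out (0 to 0). Over 5 arrays it called 5 with array weights and 7 with a spread pooled over both tissues. It called 606 without congenic array 3 and 0 without any other array. With the replicate number as a block, a pairing that the samples' deviations cannot decide, 0 probes were called over 6 arrays and 19 over 5. The contrast of tissues over 12 arrays gave 1 call with array weights (H2-Ea) and 0 otherwise. Over 11 arrays it gave 1 with array weights, 1 without the trend and 1 among brighter probes (H2-Ea each time), and 0 to 237 with an array left out: 237 without congenic hypothalamus array 3, 2 without wild type hypothalamus array 2 and 1 without congenic muscle array 3.

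The count of chromosome 17 genes with a p under 0.01 was 2 to 28 over 6 arrays with an array left out (0.305% to 4.27%, with 0.0759% to 1.02% on other chromosomes in those fits). It was 19 (2.90%, against 1.16%) without wild type array 1 and congenic array 1 together. Over 5 arrays it was 6 to 92 with an array left out (0.915% to 14%, against 0.304% to 8.51%). Of the named genes' 6-array differences, 4 genes turned direction with both values beyond 1 standard error. Aldoc became -0.84 with array weights and ran from -0.76 to 4.36 with an array left out. Atp5d became -0.59 with array weights and -0.58 without both first arrays, and ran from -0.68 (without wild type array 1) to 3.27 with an array left out. Calb2 ran from -0.61 (without wild type array 1) to 3.99 with an array left out, and Pomc became -0.60 without both first arrays. The cause was not tested. Signal over background is unknown.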
